A study of Mus musculus with 24 samples.

Results

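The genes of heme synthesis and mitochondrial import were followed in mouse blood after irradiation. The set holds 9 genes, chosen by name: the enzyme genes Alas2, Alad, Uros, Urod, Cpox, Ppox and Fech, and the mitochondrial carrier genes Slc25a37 and Slc25a38. On the array they are represented by 12 of 39429 probes that are not controls. The rule that chose the genes used no measured value, but earlier results of these data were known when they were chosen. A probe was tested only if it was well above background on at least 5 of the 24 arrays. Each of the 9 genes had such a probe, among 15787 genes tested.

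Blood was drawn by cardiac puncture 24 h after exposure from male C57BL/6J mice and kept in an RNA stabilising solution, and total RNA was labelled and hybridised to one-colour Agilent arrays. The groups were Gadd45aKO mice given 7 Gy of x-rays (9 arrays), Gadd45aWT mice given 7 Gy (5 arrays), Gadd45aKO mice at 0 Gy (5 arrays) and Gadd45aWT mice at 0 Gy (5 arrays). The design text calls the arrays of a group independent experiments but ties none of them to an animal, and how the Gadd45a allele was made is not stated. The p-values therefore cover the variation among these arrays, which may be technical. Values are log2 signals relative to the 75th percentile of the same array, and a difference of 1 is a doubling.

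Heme is built from glycine and succinyl-CoA in a chain of enzymes that begins in the mitochondrion, passes through the cytosol and ends in the mitochondrion. ALAS2, the erythroid form of the first enzyme, sets the pace of the chain in red cell precursors, and ferrochelatase (Fech) closes it by placing iron in protoporphyrin. Mitoferrin 1 (Slc25a37) carries iron across the inner mitochondrial membrane, and SLC25A38 carries glycine, a substrate of the first step, and no iron. In blood, Alas2 transcripts come mainly from reticulocytes, the youngest red cells in the circulation. Which blood cells gave the transcripts of the other genes was not tested.

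The factor GATA1 binds words of the form AGATAA or TGATAA near many erythroid genes. RefSeq promoters of build GRCm38.p6 were at hand for 7 of the 9 genes (9 promoters), and the 250 bases before each start were searched for these 2 words on both strands. A single word was found in each of 3 of the 9 promoters: those of Alas2, of Cpox and of 1 of the starts of Uros. The promoters of Alas2 and Cpox are shown because the changes of their transcripts had opposite signs in the Gadd45aKO arrays with all arrays kept, with the word in capitals.
Alas2 (chrX:150547167-150547416, + strand): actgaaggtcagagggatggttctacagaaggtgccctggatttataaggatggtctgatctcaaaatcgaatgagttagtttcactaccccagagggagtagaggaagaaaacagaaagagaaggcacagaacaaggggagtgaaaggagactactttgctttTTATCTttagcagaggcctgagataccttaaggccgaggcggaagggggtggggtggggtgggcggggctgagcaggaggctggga
Cpox (chr16:58669958-58670207, + strand): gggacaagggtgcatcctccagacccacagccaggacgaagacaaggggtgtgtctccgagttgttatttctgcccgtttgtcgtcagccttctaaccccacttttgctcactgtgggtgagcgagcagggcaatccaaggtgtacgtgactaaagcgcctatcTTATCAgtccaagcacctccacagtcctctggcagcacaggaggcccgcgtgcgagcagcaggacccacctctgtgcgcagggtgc
Both words lie on the reverse strand and end 81 bases before the start. Either word, on either strand, occurs in 16.6% of the 32851 promoters of the table over the same 250 bases; the words overlap in the letters GATAA and cannot begin at the same base. A match is a run of letters and was not tested as a binding site.

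Some arrays stood apart, and the results of the 9 genes that rest on them are given with and without them. For other genes only some of these values are given. Leaving out KO-labelled replicates 2 and 5 at 0 Gy was chosen after seeing the data. After 7 Gy the probe for Gadd45a lay between −0.66 and 0.33 in Gadd45aKO and between −1.61 and −0.79 in Gadd45aWT arrays. At 0 Gy it lay between 0.30 and 0.70 in Gadd45aKO and between 0.31 and 0.89 in Gadd45aWT arrays. The probe was higher in KO-labelled arrays at 7 Gy and its ranges overlapped at 0 Gy, so it did not check the labels, and the groups are called KO-labelled and WT; where the probe lies relative to the deleted part is not given in the sources used here. The mean of 15 hepatocyte genes was −4.72 to −2.36 in the 9 irradiated KO-labelled arrays; in irradiated WT arrays it was −2.56 and −2.53 in replicates 1 and 2 but 1.29 to 1.301 in replicates 3, 4 and 5. Without irradiation it was −4.44 and −3.64 in KO-labelled replicates 2 and 5 and −7.11 to −6.64 in the other 3, and −6.77 to −6.49 in WT arrays. Summed over the 15 genes, the signal relative to the array's 75th percentile was 1.22 to 6.68 in KO-labelled and 5.97 to 108 in WT arrays at 7 Gy; at 0 Gy it was 0.501 to 2.99 in KO-labelled and 0.604 to 0.852 in WT arrays. Alb, the gene of albumin, was well above background on 9 of 9, 5 of 5, 2 of 5 and 0 of 5 arrays in the same order. Between 25.7% and 50.9% of probes were well above background on an array. KO-labelled replicates 6 to 9 at 7 Gy lay on a slide that held no other group. Their 75th percentile was 10.1 to 11.1 in log2, against 9.33 to 9.65 in KO-labelled replicates 1 to 5 at 7 Gy. Without a slide block, any effect of that slide enters the mean of the KO-labelled 7 Gy group alone. With the slide as a block, the arrays on it add nothing to an estimated change. KO-labelled replicates 1 and 4 at 0 Gy were about as close to each other as repeat spots of 1 probe within an array (ratio 1.06). They were counted once, so n = 4 in that group. In the fits with a slide or replicate block each of them was counted by itself. At 7 Gy, KO-labelled replicates 1, 2 and 4 (1.16 to 1.17) and WT replicates 1 and 2 (1.22) and 3 and 4 (1.28) were nearly as close. Under a looser limit of 1.3 these were counted once too. Genes whose response differed between the labels then went from 506 higher and 1875 lower to 166 and 881. Repeat spots varied by over 10% on KO-labelled replicate 2 at 0 Gy (17.3%), WT replicate 1 at 0 Gy (16.3%) and KO-labelled replicate 3 at 7 Gy (11.7%). All 24 erythroid marker genes were measured, and their mean lay between −0.91 and 0.13 in KO-labelled and −1.62 and −0.74 in WT arrays at 7 Gy, and between −0.19 and 0.44 in KO-labelled and 0.15 and 0.30 in WT arrays at 0 Gy.

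The first comparison asks how the heme genes stood 24 h after 7 Gy, within each genotype label. In KO-labelled arrays 4 of the 9 genes fell (Uros, Urod, Cpox and Slc25a38), Alas2 rose, and Alad, Ppox, Fech and Slc25a37 did not pass the test. In WT arrays 6 of the 9 fell (Uros, Urod, Cpox, Fech, Slc25a37 and Slc25a38) and none rose, while Alas2, Alad and Ppox did not pass. The test was limma on all 15787 genes with a Benjamini-Hochberg adjusted p under 0.05. By that rule 46.9% of all genes passed in KO-labelled arrays (12.4% rose and 34.5% fell), so the 4 genes that fell there are close to the share of all genes. In WT arrays 23.6% passed (10.1% rose and 13.6% fell). The median change of the 9 genes was −0.50 in KO-labelled and −0.82 in WT arrays, beside −0.26 and −0.05 over all genes. Scaling each array to its median in place of its 75th percentile moved the KO-labelled median of all genes to −0.01, and the calls to 2743 genes higher and 4173 lower, beside 1958 and 5450. Without replicates 3, 4 and 5 of WT at 7 Gy, 2 of the 9 genes fell in WT (Slc25a37 and Slc25a38) and none rose; the part of the hepatocyte signal in these values was not tested. Without KO-labelled replicates 2 and 5 at 0 Gy the same 4 genes fell in KO-labelled arrays and none rose. In whole blood, fewer cells of a type and less RNA per cell cannot be told apart. Markers of other blood cells moved with the dose. All 8 B cell genes fell under both labels; platelet genes rose for 10 of 11 in KO-labelled and 7 of 11 in WT arrays; T cell genes fell for 6 of 8 in KO-labelled and 2 of 8 in WT arrays. Of 7 NK cell genes 1 rose and 4 fell in KO-labelled arrays and 2 rose in WT arrays, of 11 tested neutrophil genes 6 fell in KO-labelled arrays and 1 rose and 1 fell in WT arrays, and of 7 monocyte genes 2 rose and 2 fell under each label. Their part in the results was not tested.

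**Figure D1:**
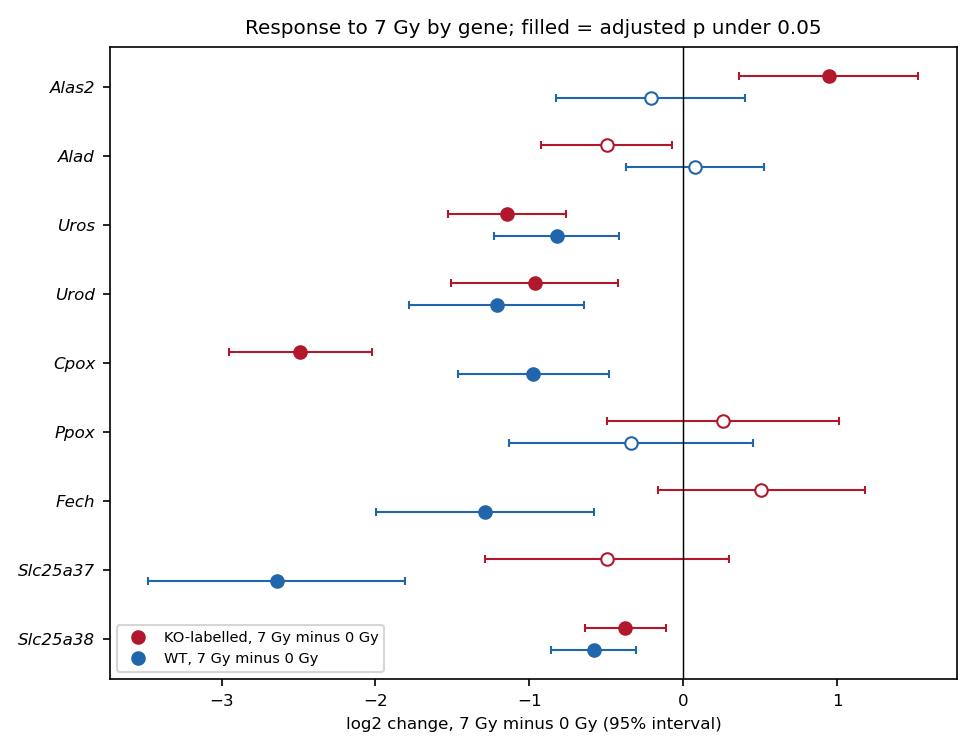
Log2 change after 7 Gy (7 Gy minus 0 Gy) of the 9 genes in KO-labelled arrays (red, upper of each pair) and WT arrays (blue, lower), with 95% intervals from the limma fit; filled points passed an adjusted p of 0.05. Cpox fell in both, by 2.49 in KO-labelled and by 0.97 in WT arrays, and Alas2 alone lay above 0 with a filled point, at 0.94 in KO-labelled arrays.

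Alas2 makes 5-aminolevulinate, the first precursor of the chain. Its level in KO-labelled arrays at 7 Gy ran from 7.36 through a median of 8.51 to 8.79. In WT arrays at 7 Gy it was 8.26, 8.28, 7.29, 7.40 and 7.55. Unirradiated KO-labelled arrays gave 7.73, 6.88, 7.58, 7.48 and 7.20, and unirradiated WT arrays gave 8.53, 7.80, 7.66, 7.83 and 8.03. Under each label the irradiated and unirradiated arrays overlapped, although 7 of the 9 irradiated KO-labelled arrays lay above every KO-labelled array at 0 Gy. In KO-labelled arrays the change was 0.94 ± 0.28 (SE; limma adjusted p = 0.00815), and on the 5 array slides that hold all 4 groups it was positive on 5 of 5 (1.02 to 1.91). Before scaling, the Alas2 signal of KO-labelled arrays was lower at 7 Gy than at 0 Gy on 4 of these 5 slides, by 0.103 to 0.269 in log2, and higher by 1.70 on the slide that holds replicate 2 at 0 Gy. The 75th percentile subtracted from it was lower at 7 Gy on all 5 slides, by 1.12 to 1.49 on those 4 and by 0.209 on the other. With the slide as a block the scaled change was 1.26 (adjusted p = 0.000175). Without KO-labelled replicates 2 and 5 at 0 Gy, the arrays with the lowest Alas2 levels of their group, it was 0.67 (adjusted p = 0.178). The change in WT arrays was −0.21, with a 95% interval of −0.83 to 0.40, and without replicates 3, 4 and 5 at 7 Gy it was 0.30, so its sign was not settled.

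The Alas2 spot was among the brightest of the array, between the 2nd and the 7th of 39429 probes on every array. The rise in KO-labelled arrays depended on the processing. It still passed with the array median, the 75th percentile over all probes or the deposited table of values. With normexp background correction the change was 0.85 (limma adjusted p = 0.0799). Quantile normalization, which gives every array the same distribution of signals, put that change at −0.04 (adjusted p = 0.784), and leaving out the 3 arrays with noisy repeat spots put it at 0.74 (adjusted p = 0.0541). Under quantile normalization a probe that stays among the brightest can take only the few highest values. The −0.04 therefore cannot decide whether Alas2 changed. The log2 signal of the Alas2 probe itself lay between 16.4 and 18.7, and the 75th percentile subtracted from it lay between 9.33 and 11.1 in log2. The genes whose centred values over the 23 samples were nearest to those of Alas2 were Oaz1, an inhibitor of ornithine decarboxylase, with a root mean square difference of 0.13, Tpt1 (0.13), and the ribosomal protein genes Rplp2 (0.17), Rps29 (0.18) and Rpl38 (0.20). Their probes were bright too, from rank 5 to 9 for Tpt1 and from rank 71 to 149 for Rpl38. In KO-labelled arrays all 5 passed the test in the same direction as Alas2, with changes of 0.89 to 1.12. Among the other 8 heme genes the nearest to Alas2 was Fech, at a difference of 0.52.

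The cytosolic steps gave 2 genes that fell under both labels. Uros encodes the enzyme that closes the tetrapyrrole ring. Its level ran from −5.03 through a median of −4.48 to −3.87 in irradiated KO-labelled arrays, and was −4.29, −4.30, −4.94, −5.10 and −4.98 in WT arrays at 7 Gy. Unirradiated KO-labelled arrays gave −3.34, −3.52, −3.25, −3.27 and −3.38, and unirradiated WT arrays gave −3.83, −4.11, −3.97, −3.89 and −3.69. No irradiated array reached an unirradiated one of the same label. The change was −1.15 ± 0.18 (SE; limma adjusted p = 3e-05) in KO-labelled arrays and −0.82 ± 0.19 (adjusted p = 0.00316) in WT arrays. The WT value was −0.39 (adjusted p = 0.361) without replicates 3, 4 and 5 at 7 Gy. A second, dimmer Uros probe was well above background on 2 of 9 KO-labelled and 0 of 5 WT arrays at 7 Gy and on 4 of 5 arrays under each label at 0 Gy, so no change is given for it.

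Urod encodes the decarboxylase that turns uroporphyrinogen into coproporphyrinogen. In KO-labelled arrays at 7 Gy it ran from −0.52 through a median of 0.26 to 0.48, and in WT arrays at 7 Gy it was −0.18, −0.02, −0.94, −0.87 and −0.80. It was 1.60, −0.06, 1.42, 1.62 and 1.484 in KO-labelled arrays at 0 Gy, and 0.46, 0.70, 0.61, 0.68 and 0.81 in WT arrays at 0 Gy. The WT groups were apart, and the KO-labelled groups overlapped only through replicate 2 at 0 Gy, one of the noisy arrays. The change was −0.97 ± 0.26 (SE; limma adjusted p = 0.00401) in KO-labelled and −1.21 ± 0.27 (adjusted p = 0.00219) in WT arrays. Without replicates 3, 4 and 5 at 7 Gy the WT change was −0.75 (adjusted p = 0.226). Alad, which joins pairs of aminolevulinate into porphobilinogen, lay between −5.25 and −3.67 in KO-labelled and −4.21 and −3.51 in WT arrays at 7 Gy, against −4.09 to −3.69 in KO-labelled and −4.05 to −3.50 in WT arrays at 0 Gy. The groups overlapped, and the changes were −0.50 (95% interval −0.92 to −0.07; adjusted p = 0.0511) and 0.07 (−0.37 to 0.52; adjusted p = 0.876). A second, dimmer Alad probe was well above background on 10 of the 24 arrays. Its changes were 0.31 (limma adjusted p = 0.665) in KO-labelled and −0.29 (adjusted p = 0.791) in WT arrays, opposite in sign to the first probe.

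Cpox, the oxidase that makes protoporphyrinogen from coproporphyrinogen, had the lowest change of the 9 genes in KO-labelled arrays. Its level there ran at 7 Gy from −6.30 through a median of −5.43 to −4.95, and was −4.80, −5.34, −4.93, −5.02 and −5.31 in WT arrays at 7 Gy. Unirradiated KO-labelled arrays gave −2.70, −3.61, −2.74, −2.70 and −2.78, and unirradiated WT arrays gave −4.33, −3.92, −4.10, −3.97 and −4.20. Under both labels the irradiated arrays all lay below the unirradiated ones. At 7 Gy the probe was well above background on 6 of 9 KO-labelled and 5 of 5 WT arrays. The change was −2.49 ± 0.22 (SE; limma adjusted p = 1.65e-08), a 5.61-fold fall, in KO-labelled arrays, and −0.97 ± 0.24 (adjusted p = 0.00376), a 1.96-fold fall, in WT arrays. Without replicates 3, 4 and 5 at 7 Gy the WT change was −0.96 (adjusted p = 0.0732), the same in size. With normexp background correction the changes were −0.71 (adjusted p = 0.488) in KO-labelled and 0.29 (adjusted p = 0.674) in WT arrays, beside medians over all genes of 0.46 and 0.60.

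Ppox, the oxidase that makes protoporphyrin, was variable and passed no test in this fit. It lay between −3.11 and −0.41 in KO-labelled and −2.99 and −2.15 in WT arrays at 7 Gy, and between −3.01 and −1.75 in KO-labelled and −2.71 and −1.97 in WT arrays at 0 Gy. The changes were 0.26 (95% interval −0.50 to 1.01) in KO-labelled and −0.34 (−1.13 to 0.45) in WT arrays. With the slide as a block the KO-labelled change was 0.60 (adjusted p = 0.0405), positive on 4 of 5 slides.

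Fech closes the chain. It ran from 5.88 through a median of 6.80 to 7.22 in irradiated KO-labelled arrays, and was 6.26, 6.29, 4.61, 4.62 and 4.74 in WT arrays at 7 Gy. It was 6.51, 5.52, 6.57, 6.45 and 6.13 in KO-labelled arrays at 0 Gy, and 6.74, 6.53, 6.44, 6.56 and 6.71 in WT arrays at 0 Gy. The irradiated WT arrays split into replicates 1 and 2, just under the unirradiated ones, and the 3 arrays with high hepatocyte signal, far below them. The WT change was −1.29 ± 0.34 (SE; limma adjusted p = 0.0076) with all arrays and −0.32 (adjusted p = 0.696) without those 3. In KO-labelled arrays the change was 0.51 (95% interval −0.17 to 1.18; adjusted p = 0.213), and −0.29 (adjusted p = 0.18) after quantile normalization.

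Slc25a37, the iron carrier, had the lowest change of the 9 genes in WT arrays. Its tested probe ran from 4.18 through a median of 5.67 to 5.95 in irradiated KO-labelled arrays, and was 4.32, 4.29, 2.61, 2.66 and 2.78 in WT arrays at 7 Gy. It was 6.31, 4.85, 6.06, 6.16 and 5.95 in KO-labelled arrays at 0 Gy, and 5.87, 6.07, 5.85, 5.98 and 6.09 in WT arrays at 0 Gy. The WT groups were apart with or without the 3 arrays of high hepatocyte signal, and the KO-labelled groups overlapped. The WT change was −2.64 ± 0.40 (SE; limma adjusted p = 3.32e-05), a 6.24-fold fall, and −1.67 (adjusted p = 0.0232) without those 3 arrays. In KO-labelled arrays it was −0.50 (95% interval −1.29 to 0.29; adjusted p = 0.302), and −1.16 (adjusted p = 0.000463) after quantile normalization.

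A second probe for Slc25a37 did not follow the first. The tested probe begins at base 3990 of the transcript and the second at base 304, and in the mouse genome (build mm9, minus strand) they lie 42717 bases apart. They share a RefSeq transcript, but the files list 3 Ensembl transcripts for the earlier probe and 2 for the later one, with 0 in common. The probe sequences are shown because the result for this gene turns on which of them is read; of the later one the first 30 bases are given.
Slc25a37 earlier probe (chr14:69902797-69902856): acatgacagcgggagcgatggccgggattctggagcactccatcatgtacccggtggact
Slc25a37 later probe (chr14:69860020-69860079): taagagtggcctagtgttgctttccgaatg
The earlier probe, well above background on 24 of 24 arrays, ran from 1.39 to 2.83 in KO-labelled and from 0.71 to 2.40 in WT arrays at 7 Gy, and from 0.53 to 1.76 in KO-labelled and from 1.81 to 2.06 in WT arrays at 0 Gy. In a fit over 19651 probes it rose in KO-labelled arrays, by 0.94 ± 0.34 (SE; limma adjusted p = 0.0254), and its WT change was −0.47 ± 0.35 (adjusted p = 0.392). The later probe relative to the earlier one fell under both labels, by 1.44 ± 0.21 (adjusted p = 9.23e-06) in KO-labelled and by 2.17 ± 0.22 (adjusted p = 1.43e-07) in WT arrays. That relative value lay between 2.67 and 3.28 in KO-labelled and 1.61 and 2.07 in WT arrays at 7 Gy, and between 3.64 and 5.41 in KO-labelled and 3.82 and 4.28 in WT arrays at 0 Gy, with no overlap between doses. The WT arrays of high and low hepatocyte signal did not separate in it.

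**Figure D2:**
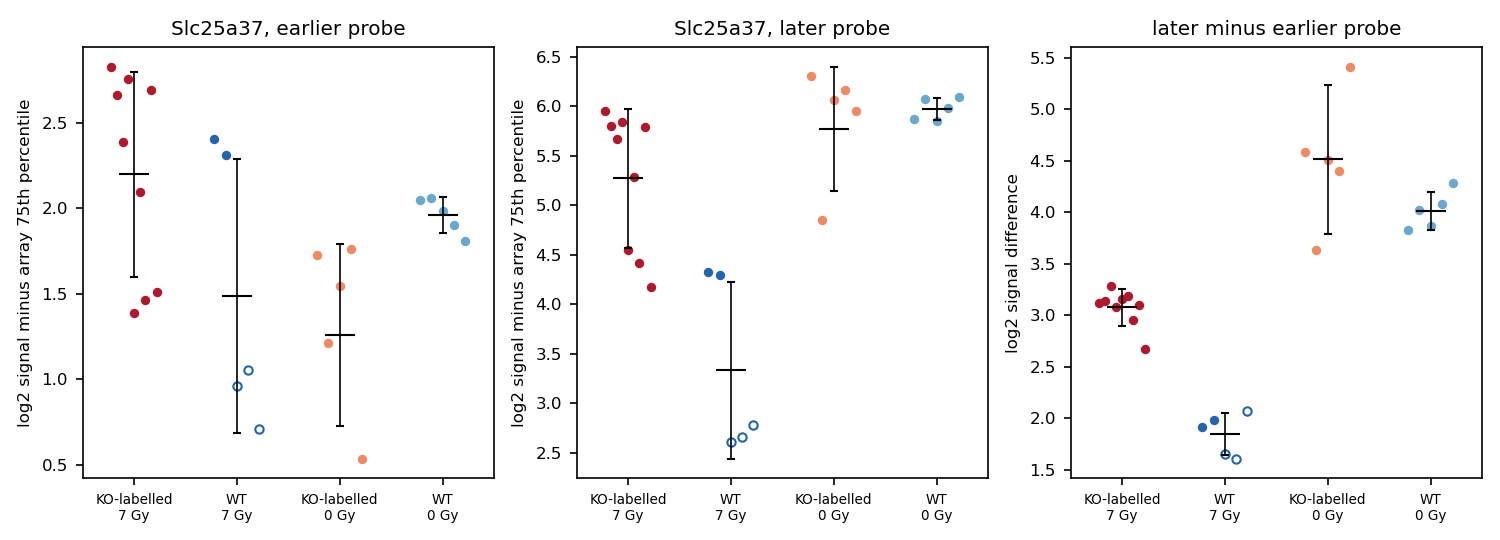
Signals of the earlier and the later probe of Slc25a37 on each array (log2 minus the array's 75th percentile) and their log2 difference, in KO-labelled 7 Gy, WT 7 Gy, KO-labelled 0 Gy and WT 0 Gy arrays; bars are mean and SD and open circles are replicates 3, 4 and 5 of WT at 7 Gy. The difference separates the doses under both labels, at 2.67 to 3.28 and 1.61 to 2.07 after 7 Gy, against 3.64 to 5.41 and 3.82 to 4.28 at 0 Gy; only changes of this difference between groups can be read, since 2 probes have no common scale.

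Slc25a38, the glycine carrier, changed least among the genes that fell. The carrier lay between −2.93 and −2.43 in KO-labelled and between −2.68 and −2.52 in WT arrays at 7 Gy, and between −2.56 and −2.04 in KO-labelled and −2.09 and −1.85 in WT arrays at 0 Gy. The WT groups were apart and the KO-labelled groups overlapped. The change was −0.38 ± 0.13 (SE; limma adjusted p = 0.0176) in KO-labelled arrays and −0.58 ± 0.13 (adjusted p = 0.00238) in WT arrays. Over all genes the KO-labelled median was −0.26. With each array scaled to its median, the Slc25a38 change in KO-labelled arrays was −0.13 (adjusted p = 0.438). In WT arrays it stayed at −0.65 (adjusted p = 0.0282) without replicates 3, 4 and 5 at 7 Gy. The genes nearest to Slc25a38 over the 23 samples were Maf1 (root mean square difference 0.18), Morf4l1 (0.20), Tprgl (0.21), Tab2 (0.21) and Ogdh (0.22).

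The next comparison asks whether the response to 7 Gy differed between the labels, by the interaction term of the same fit. Fech and Slc25a37 had higher responses in KO-labelled than in WT arrays, by 1.80 ± 0.47 (SE; limma adjusted p = 0.0147) and by 2.14 ± 0.55 (adjusted p = 0.0138), and Cpox a lower one, by 1.51 ± 0.32 (difference −1.51; adjusted p = 0.00533). Of all genes 15.1% passed, 3.21% with a higher and 11.9% with a lower response. The other 6 genes did not pass, among them Alas2 with a difference of 1.16 (95% interval 0.31 to 2.003; adjusted p = 0.0575). On the 5 slides the difference was positive on 5 of 5 for Fech (1.09 to 2.58), Slc25a37 (1.19 to 2.99) and Alas2 (1.28 to 1.66), and negative on 5 of 5 for Cpox (−2.41 to −0.29). With the slide as a block Alas2 (1.47; adjusted p = 0.00364) and Ppox (0.94; adjusted p = 0.0435) also passed. Without replicates 3, 4 and 5 of WT at 7 Gy the differences were 0.82 for Fech (adjusted p = 0.255), 1.17 for Slc25a37 (adjusted p = 0.223) and −1.53 for Cpox (adjusted p = 0.0328), and without the noisy arrays 1.53 (adjusted p = 0.0717), 1.81 (adjusted p = 0.0632) and −1.66 (adjusted p = 0.00712). Without KO-labelled replicates 2 and 5 at 0 Gy they were 1.45 (adjusted p = 0.144), 1.77 (adjusted p = 0.124) and −1.75 (adjusted p = 0.0117). For the earlier Slc25a37 probe the difference was 1.41 (adjusted p = 0.0544). The Cpox level in KO-labelled minus WT arrays was 1.15 (limma adjusted p = 0.0488) at 0 Gy and −0.37 (adjusted p = 0.221) at 7 Gy. At 7 Gy the Cpox probe was well above background on 6 of 9 KO-labelled arrays.

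At 7 Gy, KO-labelled arrays were higher than WT arrays in Urod (0.71 ± 0.24, SE; limma adjusted p = 0.0384), Fech (1.38 ± 0.30; adjusted p = 0.00211) and Slc25a37 (1.94 ± 0.35; adjusted p = 0.000455), and lower in Alad (−0.59 ± 0.19; adjusted p = 0.03). Of all genes 22.4% passed, 4.58% higher and 17.8% lower. The ranges of the groups overlapped for all 4 genes. None of the 9 genes was higher or lower without replicates 3, 4 and 5 of WT at 7 Gy; the values were then 0.25 for Urod, 0.41 for Fech, 0.97 for Slc25a37 and −0.29 for Alad. With the slide as a block 5 genes were higher, with Alas2 (0.88; adjusted p = 0.0068) and Ppox (0.68; adjusted p = 0.0353) added, and none lower. Alad was −0.45 (adjusted p = 0.0956) when each array was scaled to its median. The second, dimmer Alad probe went the other way, at 0.34 (limma adjusted p = 0.675). The Urod call ended under 4 of 15 other settings and with 8 of the 24 arrays left out singly (0.61 to 0.84; adjusted p up to 0.111): KO-labelled replicates 1, 2, 3, 4 and 8 and WT replicates 3, 4 and 5, all at 7 Gy.

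**Figure D3:**
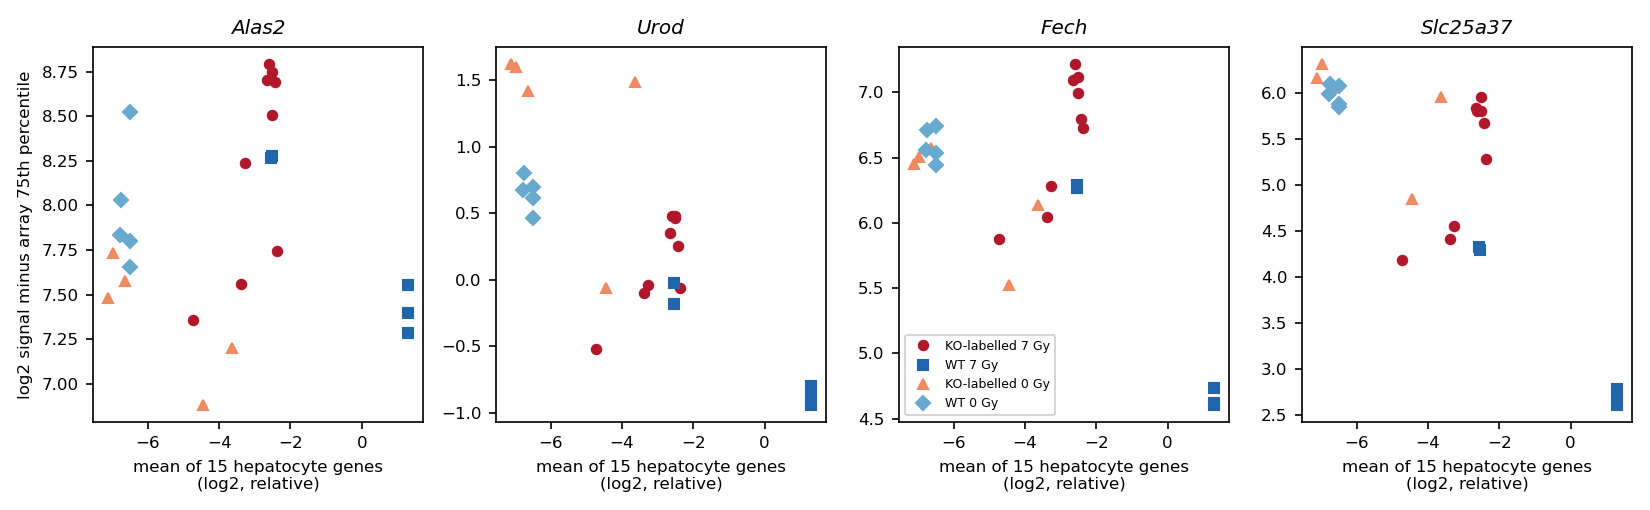
Level of Alas2, Urod, Fech and Slc25a37 (log2 signal minus the array's 75th percentile) on each array against the mean of 15 hepatocyte genes on the same array, for KO-labelled 7 Gy (circles), WT 7 Gy (squares), KO-labelled 0 Gy (triangles) and WT 0 Gy (diamonds). The WT arrays with a hepatocyte mean of 1.29 to 1.301 had Fech at 4.61 to 4.74 and Slc25a37 at 2.61 to 2.78; the 2 irradiated WT arrays at −2.56 and −2.53 had 6.26 and 6.29, and 4.32 and 4.29.

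At 0 Gy, Cpox was the 1 gene of the 9 that differed between the labels, higher in KO-labelled arrays by 1.15 ± 0.25 (SE; limma adjusted p = 0.0488), with no overlap between −3.61 to −2.70 in KO-labelled and −4.33 to −3.92 in WT arrays. Of all genes 0.291% passed, 0.209% higher and 0.0823% lower. The call ended under 10 of 13 other settings that could measure the gene, with adjusted p from 0.0107 to 1. It was 1.38 (adjusted p = 0.0824) without KO-labelled replicates 2 and 5 at 0 Gy and 1.20 (adjusted p = 0.0208) with the slide as a block, and the difference was positive on 5 of 5 slides (0.31 to 1.63). For the other 8 genes the differences lay between −0.65 (Alas2, 95% interval −1.303 to −0.0015) and 0.54 (Uros, 0.11 to 0.96).

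Partners of the heme chain moved in both directions. Of 13 tested genes that make, carry or regulate heme and its precursors beside the 9, 1 rose and 6 fell in KO-labelled arrays, and 1 rose and 6 fell in WT arrays, with median changes of −0.70 and −0.80. Beside these counts stand 12.4% higher and 34.5% lower of all genes in KO-labelled arrays, and 10.1% and 13.6% in WT arrays, and the same shares serve for the lists that follow. The number that rose in KO-labelled arrays ran from 0 to 2 over the other settings, and the number that fell was 1 with normexp and 3 to 7 otherwise. Among those that fell in KO-labelled arrays, Fam210b, which aids iron supply to ferrochelatase, fell by 1.32, the glycine transporter gene Slc6a9 by 1.17, and Clpx, whose product activates ALAS in the mitochondrion, by 1.09. In WT arrays Fam210b fell by 2.62, the lysosomal heme transporter gene Slc48a1 by 2.18, Slc6a9 by 2.08 and Slc25a39, a carrier of glutathione into mitochondria, by 1.22. Without WT replicates 3, 4 and 5 at 7 Gy the Slc25a39 change was −0.63 (limma adjusted p = 0.177). Alas1, the housekeeping form of the first enzyme, rose in KO-labelled arrays by 1.40 ± 0.52 (SE; limma adjusted p = 0.0297) but was −0.69 (adjusted p = 0.142) when only probes above background on all arrays were used, which takes another probe, and 0.38 (adjusted p = 0.691) without KO-labelled replicates 2 and 5 at 0 Gy; in WT arrays it was 0.04. Slc25a28, mitoferrin 2, fell by 0.85 ± 0.20 (adjusted p = 0.0011) in KO-labelled arrays and was −0.06 (adjusted p = 0.891) in WT arrays.

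The assembly of iron-sulfur clusters shares the mitochondrial iron. Of 15 such genes, 0 rose and 7 fell in KO-labelled arrays, and 1 rose and 7 fell in WT arrays, with medians of −0.56 and −0.78. Over the other settings the number that fell ran from 2 to 7 in KO-labelled and from 3 to 8 in WT arrays. In KO-labelled arrays the cysteine desulfurase gene Nfs1 fell by 1.77, the chaperone gene Hspa9 by 1.05 (−0.65, adjusted p = 0.0679, without KO-labelled replicates 2 and 5 at 0 Gy) and the glutaredoxin gene Glrx5 by 1.02. In WT arrays Glrx5 fell by 2.62, the scaffold gene Iscu by 2.11, Hscb by 1.74 and Bola3 by 1.27. Without WT replicates 3, 4 and 5 at 7 Gy the Hscb change was −0.79 (limma adjusted p = 0.23) and the Bola3 change −0.53 (adjusted p = 0.455).

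Genes of iron uptake and storage gave 4 that rose and 4 that fell of 15 in KO-labelled arrays, and 3 and 2 in WT arrays; over the other settings the KO-labelled counts ran from 1 to 5 and from 1 to 6. Tfrc, the transferrin receptor, rose by 1.43 ± 0.43 (SE; limma adjusted p = 0.0084) in KO-labelled arrays and was 0.86 (adjusted p = 0.187) in WT arrays. Without KO-labelled replicates 2 and 5 at 0 Gy the change in KO-labelled arrays was 0.87 (adjusted p = 0.227), and as the mean of the gene's probes 0.34 (adjusted p = 0.344). Trf, transferrin itself and a product of liver, rose by 1.58 in KO-labelled and by 3.39 in WT arrays. Hamp, the liver hormone hepcidin, was well above background on 8 of 9 KO-labelled and 5 of 5 WT arrays at 7 Gy and on 0 of 5 at 0 Gy under either label. It was therefore at least 2.94-fold higher in KO-labelled arrays (adjusted p = 0.00376) and at least 37.1-fold higher in WT arrays (adjusted p = 2.61e-06), where the lowest signal well above background on each array stands in for the unmeasured level. Tfr2 was at least 9.95-fold higher in WT arrays (adjusted p = 0.000137). Its log2 change there was 2.23 (limma adjusted p = 0.071) without WT replicates 3, 4 and 5 at 7 Gy. With normexp it was 1.99 (adjusted p = 0.0694). The iron exporter gene Slc40a1 fell by 1.43 in KO-labelled arrays, and Ncoa4, which sends ferritin to the lysosome, by 1.94 in WT arrays. Of 5 tested genes of heme degradation, 2 rose and 1 fell in KO-labelled arrays, and 1 rose and 1 fell in WT arrays; over the other settings the KO-labelled counts ran from 0 to 2 and from 0 to 1. Hmox1, heme oxygenase 1, rose by 0.86 ± 0.33 (adjusted p = 0.0385) in KO-labelled arrays and was −0.03 (adjusted p = 0.977) in WT arrays. The KO-labelled call for Hmox1 ended under 5 of 15 other settings, among them without the noisy arrays (0.54; adjusted p = 0.238), and with 6 of the 24 arrays left out singly (0.53 to 1.24): KO-labelled replicates 2 and 3 at 0 Gy and 5, 7, 8 and 9 at 7 Gy. Blvrb, a biliverdin reductase, fell by 0.69 in KO-labelled and by 1.498 in WT arrays. Without WT replicates 3, 4 and 5 at 7 Gy the Blvrb change in WT arrays was −0.71 (limma adjusted p = 0.128). Its KO-labelled call ended under 8 of 15 other settings (adjusted p up to 0.319) and with 7 of the 24 arrays left out singly (−0.74 to −0.59): KO-labelled replicates 2, 3 and 5 at 0 Gy and 5, 6, 7 and 9 at 7 Gy. Hpx, the heme-binding plasma protein hemopexin made in liver, rose by 3.85 in KO-labelled arrays, where it was well above background on 1 of 5 arrays at 0 Gy, and was at least 126-fold higher in WT arrays (adjusted p = 9.13e-08). These liver products moved with the hepatocyte genes, of which 11 of 15 rose in KO-labelled and 14 of 15 in WT arrays, and whose part in the results was not tested. The WT bounds for Hamp and Hpx and the WT change of Trf take in replicates 3, 4 and 5 at 7 Gy. Those arrays had a higher hepatocyte mean than replicates 1 and 2, and values without them are not given for these genes.

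Red cell genes changed beside the heme genes. Of 24 erythroid genes, 7 rose and 11 fell in KO-labelled arrays, and 1 rose and 13 fell in WT arrays. Without KO-labelled replicates 2 and 5 at 0 Gy, 3 rose in KO-labelled arrays, and with normexp 6 fell in KO-labelled and 8 in WT arrays. The membrane skeleton genes Epb42 and Ank1 fell by 2.72 and 2.52 in KO-labelled arrays. In WT arrays Epb42 fell by 3.62 and Slc4a1, the anion exchanger band 3, by 3.33, and Ank1, well above background on 0 of 5 arrays at 7 Gy, was at least 7.32-fold lower (adjusted p = 7.05e-05). Slc4a1 fell by 1.44 ± 0.33 (SE; limma adjusted p = 0.00113) in KO-labelled arrays. Of the globin genes, Hbb-b1 rose by 1.49 ± 0.42 (adjusted p = 0.00547) and Hba-a1 by 0.87 ± 0.31 (adjusted p = 0.0269) in KO-labelled arrays, and the WT changes were 0.23 (adjusted p = 0.79) and 0.61 (adjusted p = 0.204). Without KO-labelled replicates 2 and 5 at 0 Gy the KO-labelled changes were 0.88 (adjusted p = 0.223) and 0.79 (adjusted p = 0.171). Globin probes can read near-identical copies. After quantile normalization the Hba-a1 change was 0 in KO-labelled arrays. That method gives a probe that keeps its rank the same value on every array, so the 0 cannot decide whether Hba-a1 changed. At 7 Gy 16 of the 24 genes were higher in KO-labelled than in WT arrays and 0 lower, beside 4.58% and 17.8% of all genes. Without replicates 3, 4 and 5 of WT at 7 Gy, whose erythroid mean was −1.62 to −1.57, against −0.82 and −0.74 in replicates 1 and 2, the count of higher genes was 2. It was 5 with normexp and 12 to 17 under the other settings.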

How the data were processed

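Each array was read with Agilent Feature Extraction 12.0.2 (per the submitters' processing notes and the file headers), build mm9. The deposited scanner files hold spot intensity after the software's background subtraction, unscaled between arrays. From these intensities, log2 minus each array's 75th percentile over the 7803 probes that every array measured well above background was computed; spots of a probe were averaged, and the highest mean probe stood for a gene. The 4 groups were fitted together with limma 3.58.1 (R 4.3.3), after tests on simulated data; all p-values are two-sided, Benjamini-Hochberg adjusted over all genes. Python 3.11.15, pandas 2.3.3, NumPy 2.4.6 and matplotlib 3.10.9 were used otherwise.

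A deposited table of values holds log2 values, which, once an offset of 0 to 1.54 for each array is added to the log2 scanner signal, lay within 0.01 of it for 71.7% to 94.9% of probes; the order of steps behind the constant is not given in the sources used here. Its column medians ran from 5.81 to 7.18 (KO-labelled 7 Gy), 5.87 to 6.30 (WT 7 Gy), 5.93 to 6.41 (KO-labelled 0 Gy) and 5.75 to 6.39 (WT 0 Gy). That table served as an alternative.

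Probes were named by accession (28663), symbol (3300), older symbol (160) or the files' own name (7306). The members, gene lists and tests were chosen with earlier results of these data known. Named genes were all 9 members, Alas1, Slc25a28, Tfrc, Hmox1, Hbb-b1, Hba-a1 and Slc4a1, and of each context list at most the 4 called genes with the largest change; some genes that the rule names are not reported here. The number of arrays limits precision. Alternatives covered scaling, background correction, dim-probe filters, the probe used for a gene, slide and replicate blocks, and left-out arrays.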

Additional observations from a re-analysis of the deposited data

Results flagged for a closer look

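Of 40 pairs of a probe and a group, 4 held an array far from the rest of its group by Dixon's ratio, a rule that flags about 1 in 20 by chance. KO-labelled replicate 2 at 0 Gy was far below the others for Cpox (−3.61, against −2.78 for the nearest) and for Urod (−0.0605, against 1.42); it is one of the noisy arrays. KO-labelled replicate 3 at 7 Gy, noisy too, was far above for Ppox (−0.41, against −1.86). WT replicate 5 at 0 Gy was above its group for Slc25a38 (−1.85, against −2.02).

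The response to 7 Gy differed between the labels, by the interaction term of the fit, for Cpox (−1.51), Fech (1.80) and Slc25a37 (2.14), as KO-labelled minus WT. These values are set beside the arrays of high hepatocyte signal in the report.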

How the results depend on the processing

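Counts below are of the 9 genes. With all arrays, 1 rose and 4 fell in KO-labelled arrays, 0 and 6 in WT arrays, the response was higher for 2 and lower for 1, and KO-labelled minus WT was higher for 1 and lower for 0 at 0 Gy, and higher for 3 and lower for 1 at 7 Gy. The 1 gene higher at 0 Gy (Cpox) became 0 with the array median, the percentile over all probes, quantile normalization, normexp, the authors' value table (which has no Cpox), no filter on dim probes, probes above background on all arrays (which drops Cpox), a looser limit for near-identical arrays, the mean of a gene's probes, without the noisy arrays, without WT replicates 3, 4 and 5 at 7 Gy and without KO-labelled replicates 2 and 5 at 0 Gy, an alternative chosen after seeing the data. The 1 gene lower at 7 Gy (Alad, absent from the value table) became 0 under the same settings other than probes above background on all arrays, without the noisy arrays and without the 2 KO-labelled arrays, and also under the slide and replicate blocks. In KO-labelled arrays 2 fell with the percentile over all probes and the authors' value table (which lacks Cpox, Slc25a38 and Alad), and 0 rose with quantile normalization, without the noisy arrays and without the 2 KO-labelled arrays. The 1 lower response (Cpox) became 0 with the value table and with probes above background on all arrays. Normexp left 0 higher and 0 lower in KO-labelled arrays and in the difference of responses, and 3 lower in WT arrays. Without WT replicates 3, 4 and 5 at 7 Gy, 2 fell in WT arrays, 0 had a higher response and 0 were higher at 7 Gy; without the noisy arrays, and without the 2 KO-labelled arrays, 0 had a higher response.

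Signs turned as follows. In KO-labelled arrays: with normexp, Alad 0.28, Slc25a38 0.0552, Slc25a28 0.0695 and Clpx 0.31; with quantile normalization, Alas2 −0.0415 and Fech −0.29; with the mean of probes, Slc25a37 0.22; with probes above background on all arrays, Alas1 −0.69; Ppox −0.0822 without the noisy arrays and −0.14 without the 2 KO-labelled arrays. In WT arrays: with normexp, Uros 0.32, Cpox 0.29, Slc25a28 0.29 and Hmox1 0.25; Hmox1 was 0.0102 with the value table, 0.0280 with the array median and 0.0608 with the looser limit, where Alas1 was −0.0524; Alas1 was −0.0154 without the noisy arrays; Alad was −0.11 with the mean of probes; without WT replicates 3, 4 and 5 at 7 Gy, Alas2 was 0.30 and Alad −0.22. In the difference of responses, Uros was 0.00336 with the percentile over all probes and 0.17 with the mean of probes, Alad 0.0164 with the mean of probes, and Urod −0.21 without the 3 WT arrays, −0.11 without the noisy ones and −0.15 without the 2 KO-labelled ones, where Slc25a38 was −0.0112. At 0 Gy, Fech was 0.0795 and Slc25a37 0.31 with quantile normalization, Alad 0.0318 and Slc25a37 0.0824 without the noisy arrays, and Alad 0.0152, Ppox 0.13 and Slc25a37 0.17 without the 2 KO-labelled ones. At 7 Gy, Slc25a38 was 0.14 with the percentile over all probes, 0.0596 with the array median, 0.0996 with quantile normalization and 0.00892 with normexp, Uros −0.16 with normexp and −0.22 without the 3 WT arrays, and Alas2 −0.00958 without them. The cause of these changes was not tested.

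Leaving out 1 array at a time, the gene higher at 0 Gy ranged from 0 to 1 (lost in 17 of 24) and the gene lower at 7 Gy from 0 to 1 (lost without WT replicate 3, 4 or 5 at 7 Gy). Signs turned in the ranges of Alas1 (−0.18 to 0.17), Hmox1 (−0.16 to 0.17) and Hbb-b1 (−0.0169 to 0.55) in WT arrays, Urod (−0.14 to 0.38) in the difference of responses, and Alad (−0.0762 to 0.0760) and Slc25a37 (−0.30 to 0.11) at 0 Gy. Of 1342 values of named genes under the other settings, 1172 kept their direction and their side of the threshold, as did 2042 of 2112 with 1 array left out.

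Replicate numbers 1 to 5 coincide with the slides that hold all 4 groups, and KO-labelled replicates 6 to 9 at 7 Gy share a further slide. Deviations of same-numbered arrays correlated between −0.39 and 0.73, over 0.1 in 20 of 30 pairs, and the labels do not say that a number marks a batch; the slide block is given in the report. With the replicate block, as with the slide block, 2 genes rose in KO-labelled arrays, 4 had a higher response, and 5 were higher and 0 lower at 7 Gy. Both blocks give the same estimated changes, so the replicate block is no second check. Signal over background limits Cpox, Uros and Alad.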
